A study of Mus musculus with 9 samples.

Results

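The nuclear-encoded subunits of the mitochondrial respiratory chain were described in the livers of ethanol-fed mice, gene by gene and complex by complex. Members were the rows of the gene table whose symbol begins with *Nduf* and a letter a, b, c, s or v followed by a number, with *Sdh* and a letter a to d, with *Uqcr*, with *Cox* and a number from 4 to 8, or with *Atp5*, leaving out the 13 rows whose symbol contains -ps. Of 55401 rows, 93 were members. They were 84 subunit genes, of which 37 belong to complex I, 4 to complex II, 8 to complex III, 18 to complex IV and 17 to complex V, placed by symbol. The other 9 rows were 4 *Sdhaf* assembly factors of complex II, 4 processed pseudogenes (*Cox6c2*, *Ndufa11b*, *Ndufb4c* and *Ndufs6b*) and a further record named *Atp5o*. The rule uses symbols and no measured values.

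Poly(A) RNA from the whole livers of 4 *Ncf1Lyz-/-* mice (libraries NKO2 to NKO5) and 5 WT mice (libraries WT1 to WT4 and WT6) was sequenced, and levels were deposited as FPKM, a fragment count scaled to transcript length and library size. All were female mice of 10 to 12 weeks, labelled C57BL/6 (the floxed line was kept on C57BL/6J), that took a control liquid diet for 5 days and a liquid diet with 5% ethanol for 10 days, received 5 g/kg ethanol by gavage on day 11, and were killed 9 hours later. Both groups carried *Ncf1* alleles flanked by loxP sites, and only *Ncf1Lyz-/-* mice also carried Cre recombinase driven by the lysozyme promoter, which is active in neutrophils and macrophages. WT mice were their littermates without Cre, no group went without ethanol, and hepatocytes, the source of most RNA of a liver, are not the cells in which this Cre acts.

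The respiratory chain lies in the inner mitochondrial membrane. Complex I takes electrons from NADH and complex II from succinate, both pass them to coenzyme Q, complex III passes them on to cytochrome c, and complex IV gives them to oxygen. The protons pumped on the way drive complex V, the ATP synthase. A few subunits are encoded in mitochondrial DNA and all others in the nucleus, and several nuclear subunits of complex IV exist as paralogs that differ between tissues. In hepatocytes the chain is also where the NADH made during ethanol oxidation is consumed.

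Depth, estimated from the smallest steps between low values, was 15.4 M to 20.3 M fragments a library (M, mega). It was 18.4 M or more in all 4 *Ncf1Lyz-/-* libraries and in WT1 and WT2, and 16.1 M or less in WT3, WT4 and WT6, so depth and genotype are partly aligned. *Ncf1*, the targeted gene, was at 0.368, 0.333, 0.440 and 0.885 FPKM in NKO2 to NKO5 and 1.83, 1.16, 0.492, 0.366 and 1.10 FPKM in WT1 to WT4 and WT6, with overlapping groups (log2 fold change -0.74, SE 0.44, adjusted p = 0.890 by limma). Summed hepatocyte markers (10 genes) ranged from 53655 to 67907 FPKM in *Ncf1Lyz-/-* livers and from 49058 to 64016 FPKM in WT livers. Summed macrophage and Kupffer cell markers (12 genes) ranged from 159 to 327 FPKM and from 130.3 to 401 FPKM, and neutrophil markers (11 genes) from 4.23 to 23.0 FPKM and from 6.15 to 12.3 FPKM. In whole liver, fewer cells of a type and less RNA per cell cannot be told apart.

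No nuclear-encoded subunit gene passed the test between the genotypes. Of the 86 members that averaged 0.5 FPKM or more, 79 of them subunit genes, 0 had an adjusted p under 0.05 (limma on log2(FPKM + 0.1), adjusted over all 12350 genes tested), and the smallest adjusted p of a member was 0.784. The background was a single gene of 12350, or 0.0081%. At an unadjusted p under 0.05, 1 member was higher in *Ncf1Lyz-/-* livers (*Ndufs8*, 1.16% of 86) against 2.17% of all genes, and 1 was lower (*Cox6b2*, 1.16%) against 3.73% of all genes. Each share rests on 1 gene of 86, so its distance from the background is not read as a trait of the members.

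The differences between the genotypes were small. The median log2 fold change of the 79 subunit genes was -0.02, with the middle 50% of them between -0.09 and 0.04, and 34 were positive and 45 negative. The median over all genes tested was 0.003. For 72 of the 79 subunit genes (91.1%) the 95% interval of the log2 fold change lay within -0.5 and 0.5, compared with 33.8% of all genes tested and 54.3% of those with a mean of at least 10 FPKM. Thus for most subunit genes a change larger than 0.5 on the log2 scale lay outside the interval, and smaller ones were not resolved at this spread.

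**Figure D1:**
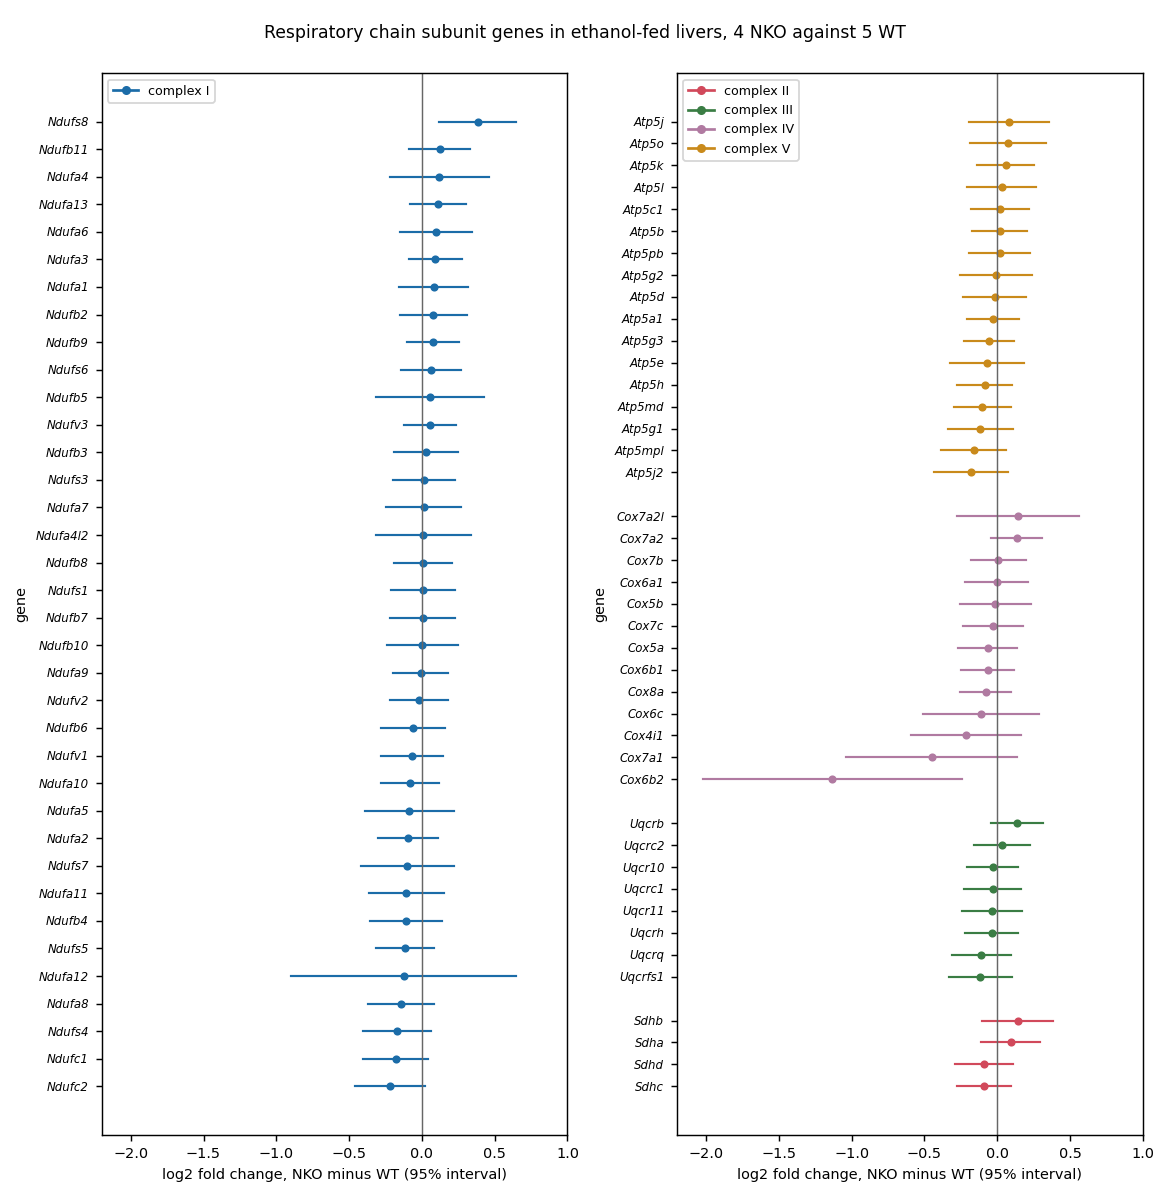
The log2 fold change (x axis, *Ncf1Lyz-/-* minus WT, from log2(FPKM + 0.1)) of 78 of the 79 tested subunit genes (y axis), with its 95% interval as a line, complex I on the left and complexes II to V on the right. Points gather around 0 in every complex. The intervals of *Ndufs8* and *Cox6b2* leave out 0, and neither passed adjustment over all genes.

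The subunit genes were among the more highly expressed genes of the liver. Their median level was 46.8 FPKM, compared with 3.17 FPKM over all genes tested, and 14 of 79 had a mean of 100 FPKM or more. Another 61 lay between 10 and 100 FPKM, and 4 lay below 10 FPKM, namely *Ndufa4l2*, *Ndufb2*, *Cox6b2* and *Cox7a1*. The 5 subunit genes outside the test averaged under 0.5 FPKM. FPKM is scaled by transcript length, so levels of different genes can be set side by side, although length estimates weigh on the value. The genes are mostly short (median longest transcript 988 bases). For the lowest genes of complexes I to V (*Ndufa4l2*, *Sdhc*, *Uqcrc1*, *Cox6b2* and *Atp5l*) it is 994, 3171, 2473, 585 and 6310 bases, and for *Ndufb2* 4371. The part of length in these ranks was not tested. The subunit genes lie on 19 chromosomes in the GENCODE M21 annotation of GRCm38.

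Means are given ± SD, first over the 4 *Ncf1Lyz-/-* livers (n = 4) and then over the 5 WT livers (n = 5). Summed over its subunit genes, complex I stood at 1481, 1462, 1344 and 1432 FPKM in NKO2 to NKO5 and 1460.4, 1473, 1425, 1362 and 1393 FPKM in WT1 to WT4 and WT6, with means of 1429.7 ± 60.3 against 1423 ± 46.4 FPKM. The NKO sum was 100.5% of the WT sum. Complex II stood at 361 ± 14.8 against 360.2 ± 7.84 FPKM (100.2%), complex III at 736 ± 33.7 against 746 ± 20.1 FPKM (98.7%), complex IV at 1173 ± 33.9 against 1215 ± 67.1 FPKM (96.6%) and complex V at 1191 ± 30.6 against 1205 ± 43.9 FPKM (98.8%). In each of the 5 complexes the groups overlapped, and the difference between their means was smaller than the SD of at least one group. The median log2 fold change was 0.005 in complex I, 6.93e-05 in complex II, -0.03 in complex III, -0.07 in complex IV and -0.02 in complex V.

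The libraries also lay close to each other. The median deviation of a library from the subunit genes' own means ran from -0.06 (NKO4) to 0.06 (WT2) on the log2 scale, with a within-group SD of 0.045, compared with -0.11 (WT4) to 0.15 (WT2) and an SD of 0.087 over all genes tested. Genes of the tricarboxylic acid cycle spread from -0.05 to 0.10, with an SD of 0.043 that is close to that of the subunit genes, mitochondrial ribosomal protein genes from -0.08 to 0.16 and cytosolic ribosomal protein genes from -0.17 to 0.27. Single subunit genes varied less as well. The median residual SD within groups was 0.101 for the 75 with a mean of at least 10 FPKM, compared with 0.226 for all 2849 genes above that bound. The median level was 52.7 FPKM in the first set and 23.8 FPKM in the second, and the part of level in the spread was not tested. The genes of one library share its depth and scaling, so these medians are a description of the 9 libraries.

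**Figure D2:**
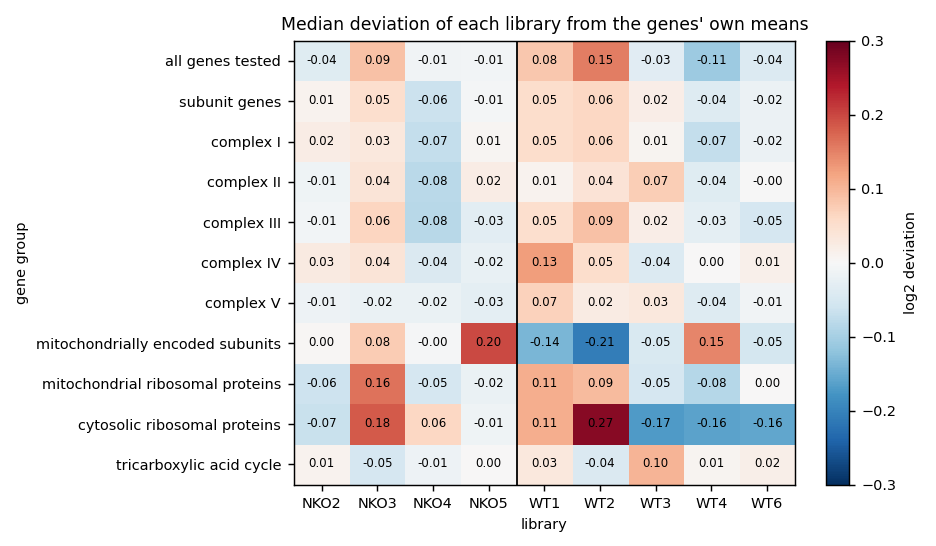
The median log2 deviation of each library (columns, 4 *Ncf1Lyz-/-* then 5 WT) from the genes' own means over all libraries, for gene groups (rows), with the value printed in each cell. Subunit genes stay within -0.06 and 0.06, whereas cytosolic ribosomal protein genes reach 0.27 in WT2 and mitochondrially encoded subunits reach 0.20 in NKO5.

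In complex I, the core subunits described here other than *Ndufs8* had log2 fold changes close to 0. *Ndufv1*, which binds NADH through its flavin, was at 28.7 ± 1.46 against 30.2 ± 2.55 FPKM (log2 fold change -0.07, SE 0.10). *Ndufs1*, the largest subunit with several iron-sulfur clusters, was at 12.1 ± 0.280 against 12.1 ± 1.09 FPKM (0.01, SE 0.10). For both genes the difference was smaller than the SD of at least one group. *Ndufs7*, an iron-sulfur subunit next to the coenzyme Q site, was at 23.2 ± 4.73 against 24.7 ± 2.62 FPKM (-0.10, SE 0.14), and NKO3 stood above the other *Ncf1Lyz-/-* libraries at 30.3 FPKM.

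*Ndufs8*, an iron-sulfur subunit of the arm of complex I that reaches into the matrix, had the smallest p of all members. It was at 44.1, 34.4, 39.2 and 38.8 FPKM in NKO2 to NKO5 and 29.7, 36.6, 26.7, 27.9 and 29.3 FPKM in WT1 to WT4 and WT6. The 3 highest values belonged to *Ncf1Lyz-/-* livers, and WT2 overlapped NKO3. The means were 39.1 ± 3.96 against 30.1 ± 3.84 FPKM, a log2 fold change of 0.38 (SE 0.12, 95% interval 0.12 to 0.65, unadjusted p = 0.00959, adjusted p = 0.784 by limma). The exact permutation p, two-sided over 126 ways to divide the libraries, was 0.0238, unadjusted. With the 6 higher-depth libraries alone, its log2 fold change was 0.24 with an unadjusted p of 0.177 by limma. The median over all genes was -0.11 there. Under the other alternatives the unadjusted p of *Ndufs8* by limma ran from 0.000666 (array weights) to 0.0338 (without NKO2), and its smallest adjusted p was 0.196.

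*Ndufs8* lies on chromosome 19 (GENCODE M21, GRCm38, 3908863 to 3912774, minus strand). Its promoter window is shown because the gene is the member with the smallest p. It runs from 250 bases before to 50 bases after the RefSeq start site (GRCm38.p6, chr19:3912725-3913024, minus strand), and the capitals mark the single match, on the reverse strand, to CCGGAAG, the core that the ETS factor GABP binds.
Ndufs8: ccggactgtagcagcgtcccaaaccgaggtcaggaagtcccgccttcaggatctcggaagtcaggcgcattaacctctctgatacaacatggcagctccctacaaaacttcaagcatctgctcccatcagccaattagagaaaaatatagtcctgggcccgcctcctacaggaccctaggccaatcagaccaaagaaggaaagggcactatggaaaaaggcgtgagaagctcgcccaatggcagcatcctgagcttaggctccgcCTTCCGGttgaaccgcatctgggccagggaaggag

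Accessory subunits of complex I covered a wide range of levels. *Ndufa8*, in the membrane arm, was the highest at 99.8 ± 10.0 against 110.1 ± 8.98 FPKM (log2 fold change -0.14, SE 0.10). *Ndufb11* was at 77.6 ± 4.83 against 71.3 ± 5.27 FPKM (0.12, SE 0.09). Both *Ndufc* genes, which encode small membrane subunits, had lower means in *Ncf1Lyz-/-* livers without passing the test. *Ndufc2* was at 45.9, 34.6, 43.5 and 44.1 FPKM in NKO2 to NKO5 and 49.4, 49.1, 53.0, 45.3 and 46.2 FPKM in WT1 to WT4 and WT6 (log2 fold change -0.22, SE 0.11, adjusted p = 0.872 by limma), and *Ndufc1* was at 9.29, 9.51, 8.40 and 10.5 FPKM in NKO2 to NKO5 and 10.6, 10.9, 11.4, 10.0 and 10.5 FPKM in WT1 to WT4 and WT6 (-0.18, SE 0.10, adjusted p = 0.890). In *Ndufc2*, NKO2 lay between WT4 and WT6, the other 3 *Ncf1Lyz-/-* libraries lay below all WT libraries and NKO3 was lowest. In *Ndufc1*, NKO5 lay inside the WT range and the other 3 below it.

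*Ndufa12* varied most among the well-expressed members. It was at 27.8, 15.6, 6.52 and 16.5 FPKM in NKO2 to NKO5 and 15.004, 21.7, 13.8, 16.2 and 14.6 FPKM in WT1 to WT4 and WT6, from 6.52 in NKO4 to 27.8 in NKO2, a range of 4.26 times. The group means were 16.6 and 16.3 FPKM (log2 fold change -0.13, SE 0.35). The -ps row of the same name, *Ndufa12-ps*, was at 36.5, 88.9, 84.3 and 81.3 FPKM in NKO2 to NKO5 and 84.2, 48.6, 81.0, 74.8 and 80.5 FPKM in WT1 to WT4 and WT6. The libraries with the highest *Ndufa12* value, NKO2 and WT2, had the lowest *Ndufa12-ps* value. A gene and a near-identical processed copy can share fragments, so how the 2 rows divide them is uncertain, and its part in the spread was not tested.

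In complex II, which is also the succinate dehydrogenase of the tricarboxylic acid cycle, all 4 subunits were well expressed. *Sdha*, the flavoprotein, was at 108 ± 7.69 against 101 ± 7.01 FPKM (log2 fold change 0.09, SE 0.09) and *Sdhb*, the iron-sulfur subunit, at 65.6 ± 6.90 against 59.4 ± 5.33 FPKM (0.14, SE 0.11). The membrane anchors *Sdhc* and *Sdhd* were at 45.2 ± 2.16 against 48.1 ± 2.01 FPKM (-0.09, SE 0.08) and 142 ± 12.2 against 151 ± 6.04 FPKM (-0.09, SE 0.09). The catalytic pair thus had positive and the anchor pair negative values, none past the test. In the 6 libraries of higher depth the log2 fold changes were -0.002 for *Sdha*, 0.26 for *Sdhb*, -0.14 for *Sdhc* and -0.06 for *Sdhd*. *Sdhd*, at a mean of 147 FPKM, was the highest and *Sdhc*, at 46.8 FPKM, the lowest.

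The assembly factors of complex II, which the symbol rule also took in, were at lower levels than the subunits. *Sdhaf1*, which helps to fit iron-sulfur clusters into *Sdhb* protein, was at 4.42, 5.46, 5.06 and 4.50 FPKM in NKO2 to NKO5 and 3.35, 4.06, 4.26, 4.43 and 4.21 FPKM in WT1 to WT4 and WT6 (log2 fold change 0.25, SE 0.12, adjusted p = 0.844 by limma). NKO2 lay just under WT4, and the other 3 *Ncf1Lyz-/-* libraries lay above all WT libraries. *Sdhaf2*, which attaches the flavin, was at 1.82 ± 0.236 against 2.07 ± 0.335 FPKM (-0.17, SE 0.16), *Sdhaf3* at 0.902 ± 0.244 against 0.771 ± 0.140 FPKM (0.18, SE 0.22) and *Sdhaf4* at 8.25 ± 1.21 against 9.11 ± 1.54 FPKM (-0.13, SE 0.16).

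In complex III, *Uqcrb*, a small subunit that takes part in coenzyme Q binding, was 1 of 2 members whose groups did not overlap with *Ncf1Lyz-/-* above WT. It was at 119, 126, 116 and 124 FPKM in NKO2 to NKO5 and 116, 113, 105, 109 and 109 FPKM in WT1 to WT4 and WT6, and the gap between the lowest *Ncf1Lyz-/-* library (NKO4) and the highest WT library (WT1) was small. The means were 121 ± 4.59 against 110.3 ± 4.14 FPKM (log2 fold change 0.14, SE 0.08, adjusted p = 0.890 by limma). The other was *Cox7a2*, so that 2.33% of the 86 tested members had this pattern, compared with 0.713% of all genes. In the opposite direction 0 members did not overlap, compared with 1.5% of all genes. After scaling by median ratios 0 members lay above, compared with 1.22% of all genes, so the pattern depends on the scaling. With single libraries left out 2 to 4 members (2.33% to 4.65%) lay above and 0 to 4 below, compared with 0.913% to 3.27% above and 1.86% to 3.47% below over all genes. In the 6 libraries of higher depth 6 members (6.98%) lay above and 18 (20.9%) below, compared with 3.13% and 12.3% of all genes there. These counts were added after the data were seen.

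No gene of complex III had an unadjusted p under 0.05 by limma, and that of *Uqcrb* was 0.116. The core proteins *Uqcrc1* and *Uqcrc2* were at 53.4 ± 1.65 against 54.7 ± 3.87 FPKM (log2 fold change -0.03, SE 0.09) and 79.9 ± 2.89 against 78.2 ± 5.37 FPKM (0.03, SE 0.09). *Uqcrfs1*, the Rieske iron-sulfur protein, was at 90.1 ± 9.35 against 97.4 ± 4.203 FPKM (-0.12, SE 0.10), with NKO4 lowest at 77.2 FPKM. *Uqcr10*, the highest of the complex, was at 129 ± 3.64 against 132 ± 5.60 FPKM (-0.03, SE 0.08), and *Uqcrq* was at 87.0 ± 7.61 against 93.7 ± 4.56 FPKM (-0.11, SE 0.09).

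Most of the paralogs lie in complex IV, and in these livers one paralog carried nearly all of the signal in each of 5 families, all but *Cox7a*. *Cox4i1* had a mean of 188 FPKM over the 9 libraries, and *Cox4i2*, the form known from lung, was listed at the table's value for an absent gene (0.0001) in 5 libraries and at 0.0967 to 0.233 FPKM in 4. *Cox6a1* had 218 FPKM and *Cox6a2*, the heart and muscle form, was listed as absent in 7 of 9. *Cox6b1* had 232 FPKM, and *Cox6b2*, known from testis, contributed 0.0836% to 0.742% of their sum. *Cox7b* had 107 FPKM, and *Cox7b2* was listed as absent in all 9 libraries. The forms known from other tissues were therefore low or listed as absent, and the skeletal and heart muscle markers were low too, in that their 10 genes summed to 0.0447 to 0.261 FPKM.

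*Cox8a* had a mean of 129.7 FPKM, *Cox8b*, the heart and muscle form, was listed at 0.455 FPKM in NKO4 and as absent in 8 libraries, and *Cox8c* was listed as absent in all 9. The *Cox7a* family was mixed. *Cox7a2*, the liver form, had 67.8 FPKM, *Cox7a2l*, which takes part in joining complexes III and IV, had 50.3 FPKM, and *Cox7a1*, the heart and muscle form, had 1.73 FPKM, 39.2 times less than *Cox7a2*. Of the paralogs with *Ndufa4*, a subunit that carries a complex I name and is now assigned to complex IV, *Ndufa4* had 72.9 FPKM and *Ndufa4l2*, known for its induction by hypoxia, had 1.80 FPKM. In complex V, the 3 genes for the same c subunit of the rotor were all expressed. By FPKM the order was *Atp5g3* (74.8 FPKM), *Atp5g2* (43.5 FPKM) and *Atp5g1* (25.4 FPKM), with no overlap between them in any library. Their longest annotated transcripts are 862, 753 and 4715 bases. FPKM divides by a length, and its part in the low rank of *Atp5g1* was not tested.

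**Figure D3:**
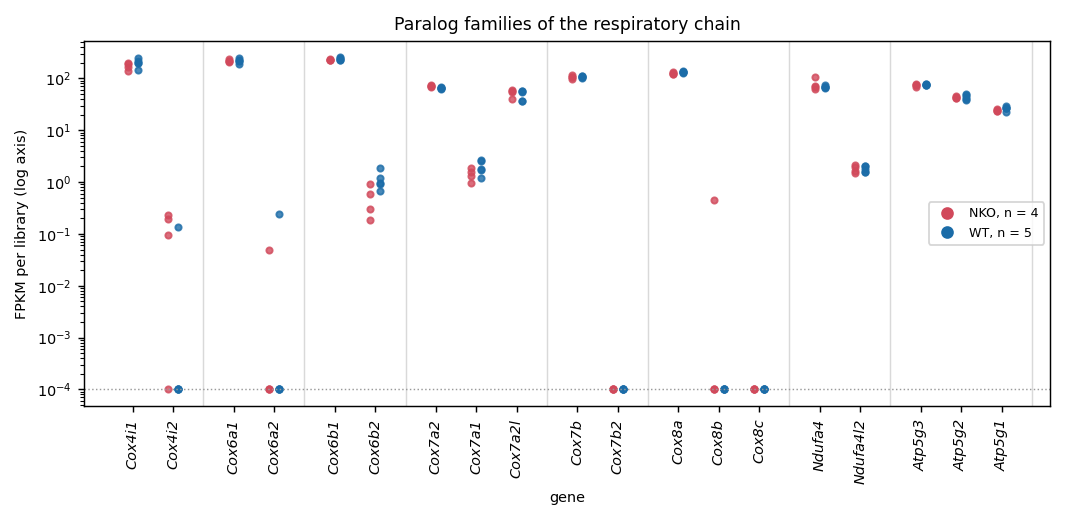
FPKM of each library (y axis, log scale) for the paralog families of complexes I, IV and V (x axis), 4 *Ncf1Lyz-/-* and 5 WT libraries as points. The dotted line marks 0.0001, the table's value for an absent gene, where *Cox7b2* and *Cox8c* lie in all 9 libraries. One paralog dominates in each family except *Cox7a* and the c subunit genes.

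The promoter windows of *Cox8a* with *Cox8b* and of *Cox7a2* with *Cox7a1* are shown because these paralogs encode forms of the same subunit and differ in level. Each runs from 250 bases before to 50 bases after the RefSeq start site in GRCm38.p6, at chr19:7217567-7217866 (minus strand), chr7:140900397-140900696 (minus strand), chr9:79759804-79760103 (minus strand) and chr7:30183921-30184220 (plus strand). Capitals mark matches to the 5 motifs searched, which are both copies of CTTCCGG, the reverse complement of the GABP core, in *Cox8a* and TATAAA in *Cox8b*. The windows of the expressed forms hold 19 (*Cox8a*) and 20 (*Cox7a2*) CpG dinucleotides, and those of the muscle forms 2 (*Cox8b*) and 7 (*Cox7a1*).
Cox8a: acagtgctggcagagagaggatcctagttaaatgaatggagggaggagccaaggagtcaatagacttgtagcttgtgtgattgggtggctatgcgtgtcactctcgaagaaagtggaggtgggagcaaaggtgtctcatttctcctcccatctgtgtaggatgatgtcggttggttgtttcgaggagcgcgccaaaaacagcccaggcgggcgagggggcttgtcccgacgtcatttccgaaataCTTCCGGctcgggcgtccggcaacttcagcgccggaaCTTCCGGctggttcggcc
Cox8b: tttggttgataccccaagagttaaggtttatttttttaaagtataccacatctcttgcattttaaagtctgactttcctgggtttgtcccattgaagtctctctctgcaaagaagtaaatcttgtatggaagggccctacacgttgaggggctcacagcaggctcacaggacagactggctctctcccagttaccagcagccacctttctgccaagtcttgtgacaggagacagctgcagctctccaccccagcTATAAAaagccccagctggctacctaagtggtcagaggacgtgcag
Cox7a2: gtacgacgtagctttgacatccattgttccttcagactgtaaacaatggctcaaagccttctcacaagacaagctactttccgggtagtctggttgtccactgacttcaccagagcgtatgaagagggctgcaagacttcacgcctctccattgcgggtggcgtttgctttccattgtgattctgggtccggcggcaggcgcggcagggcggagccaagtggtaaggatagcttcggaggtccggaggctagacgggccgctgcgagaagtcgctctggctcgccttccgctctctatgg
Cox7a1: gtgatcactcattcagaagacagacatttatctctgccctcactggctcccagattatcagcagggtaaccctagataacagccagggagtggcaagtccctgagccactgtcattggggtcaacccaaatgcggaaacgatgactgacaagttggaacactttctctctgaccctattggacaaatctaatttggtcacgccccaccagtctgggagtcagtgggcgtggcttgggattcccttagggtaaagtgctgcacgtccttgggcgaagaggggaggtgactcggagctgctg

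Over all subunit genes, RefSeq gave 73 promoter windows for 68 of the 84 genes. GCGCANGCG, the site of nuclear respiratory factor 1, was in 28.8% of these windows (20 genes), compared with 6.25% of all 32851 windows and 8.58% of those of protein-coding genes. The GABP core CCGGAAG was in 23.3% (17 genes), compared with 8.86% and 11.6%. AAGATGGC, the initiator-like site of YY1, was in 13.7% (10 genes), compared with 2.75% and 3.05%, and AAGGTCA, the half-site of the estrogen-related receptors, was in 11.0% (8 genes), compared with 4.72% and 4.08%. Each was thus more frequent in the windows of subunit genes. Of these windows 56.2% held at least 1 of the 4, compared with 20.2% of all windows and 24.0% of those of protein-coding genes. TATAAA was in 12.3%, compared with 13.6% and 12.6%. Both strands were searched, matches to different motifs overlapped in 0 windows of subunit genes, and the motifs were chosen with these windows in hand. A match is a match of letters, and its absence says only that the letters are not in the window. The median window of a subunit gene held 19 CpG dinucleotides, compared with 13 in protein-coding genes.

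*Cox7a2*, a small nuclear subunit of complex IV, had the smallest exact p of the members. It was at 72.0, 72.6, 67.3 and 73.3 FPKM in NKO2 to NKO5 and 67.3, 66.2, 61.2, 65.1 and 65.4 FPKM in WT1 to WT4 and WT6. All 4 *Ncf1Lyz-/-* values lay above all WT values, with NKO4 and WT1 less than 0.1 FPKM apart. The means were 71.3 ± 2.69 against 65.1 ± 2.34 FPKM (log2 fold change 0.13, SE 0.08, unadjusted p = 0.129, adjusted p = 0.890 by limma). The two-sided exact permutation p of 0.00794 is the smallest that 4 against 5 libraries can give. It carries no adjustment for the number of members compared. After scaling by median ratios the groups of *Cox7a2* overlapped. Its paralog *Cox7a2l* did not follow, with 36.3 to 40.4 FPKM in NKO2, WT1 and WT3 and 54.7 to 59.2 FPKM in the other 6 libraries, a separation that crossed the genotypes (log2 fold change 0.14, SE 0.19).

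The minor forms *Cox6b2* and *Cox7a1* had lower means in *Ncf1Lyz-/-* livers. *Cox6b2* was at 0.904, 0.594, 0.188 and 0.299 FPKM in NKO2 to NKO5 and 1.91, 0.950, 0.681, 1.1996 and 0.910 FPKM in WT1 to WT4 and WT6, with NKO2 inside the WT range and the other 3 *Ncf1Lyz-/-* libraries below all WT libraries. The log2 fold change was -1.13 (SE 0.40, unadjusted p = 0.0176, adjusted p = 0.826 by limma), and it was -0.72 and -0.51 with pseudocounts of 0.5 and 1, since the gene lies near the pseudocount. *Cox7a1* was at 1.83, 1.58, 1.29 and 0.940 FPKM in NKO2 to NKO5 and 2.55, 2.72, 1.21, 1.68 and 1.77 FPKM in WT1 to WT4 and WT6 (log2 fold change -0.45, SE 0.26, adjusted p = 0.890), where NKO2, NKO3 and NKO4 overlapped the WT range and WT1 and WT2 were highest. In the 6 libraries of higher depth *Cox7a1* had a log2 fold change of -0.90 with an unadjusted p of 0.0143 and an adjusted p of 0.860 by limma.

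Among the major forms, *Cox4i1*, a core regulatory subunit of complex IV, was at 136, 163, 193 and 196 FPKM in NKO2 to NKO5 and 221, 245, 197, 144 and 197 FPKM in WT1 to WT4 and WT6. The means were 172 ± 28.2 against 201 ± 37.7 FPKM (log2 fold change -0.22, SE 0.17), and the ranges overlapped widely, with NKO2 and WT4 lowest and WT2 highest. In the 6 libraries of higher depth its log2 fold change was -0.45 (unadjusted p = 0.0442, adjusted p = 0.895 by limma). *Cox5a* was at 34.0 ± 2.65 against 35.6 ± 1.58 FPKM (-0.07, SE 0.09), *Cox6a1* at 217 ± 15.2 against 218 ± 18.9 FPKM (-0.004, SE 0.10), *Cox6b1* at 226 ± 6.502 against 237 ± 14.2 FPKM (-0.07, SE 0.08) and *Cox7b* at 107 ± 7.11 against 106 ± 4.15 FPKM (0.01, SE 0.08). *Cox8a* was at 126 ± 5.07 against 133 ± 4.30 FPKM (-0.08, SE 0.08), with NKO5 inside the WT range and the other 3 *Ncf1Lyz-/-* libraries below it. These were at 129.2 (NKO2), 124 (NKO3) and 119 FPKM (NKO4), and the lowest WT library, WT4, was at 129.9 FPKM.

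**Figure D4:**
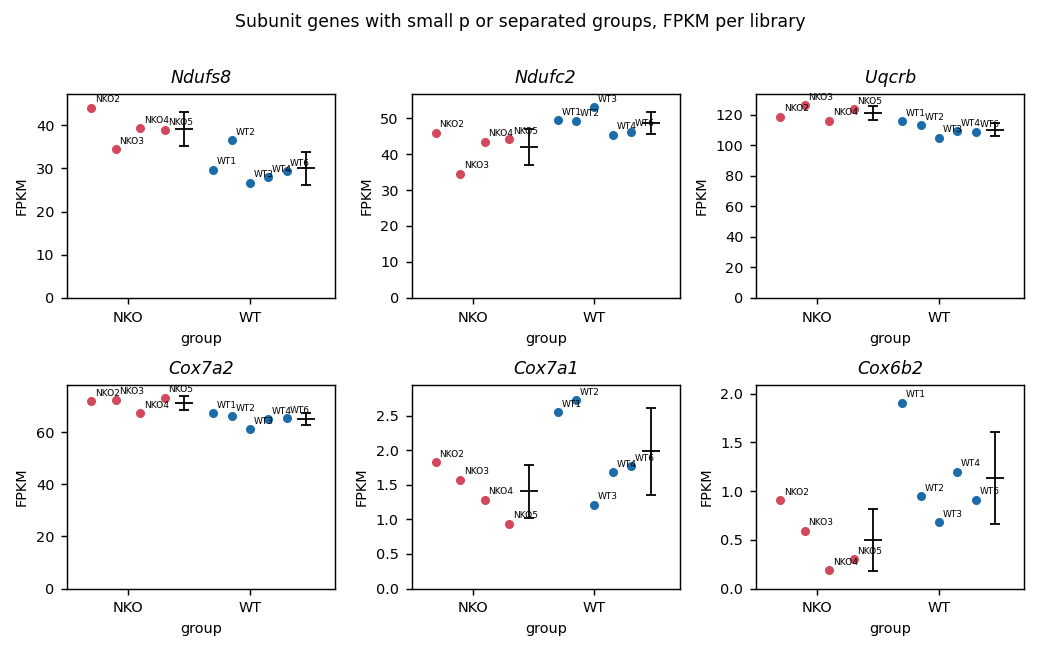
FPKM of each library (y axis, from 0) in both groups (x axis) for *Ndufs8*, *Ndufc2*, *Uqcrb*, *Cox7a2*, *Cox7a1* and *Cox6b2*, with the mean and SD beside the points. The groups separate in *Uqcrb* and *Cox7a2* by small gaps and overlap in the other 4 genes.

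Several members differed between libraries more than between genotypes. *Ndufa4* was at 108, 71.1, 62.1 and 68.1 FPKM in NKO2 to NKO5 and 75.4, 69.5, 68.4, 68.6 and 65.8 FPKM in WT1 to WT4 and WT6, with NKO2 far above the other 8 libraries, which lay between 62.1 and 75.4 FPKM. *Cox6c* was at 27.0, 31.7, 26.6 and 16.0 FPKM in NKO2 to NKO5 and 28.1, 25.9, 27.7, 26.3 and 24.8 FPKM in WT1 to WT4 and WT6, with NKO5 far below all others. Both genes have group means whose difference (log2 fold changes of 0.12 and -0.11) rests within this spread. *Ndufb5*, which encodes a membrane subunit of complex I, ranged from 7.51 in WT4 and 8.10 in NKO5 to 12.6 FPKM in NKO2.

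**Figure D5:**
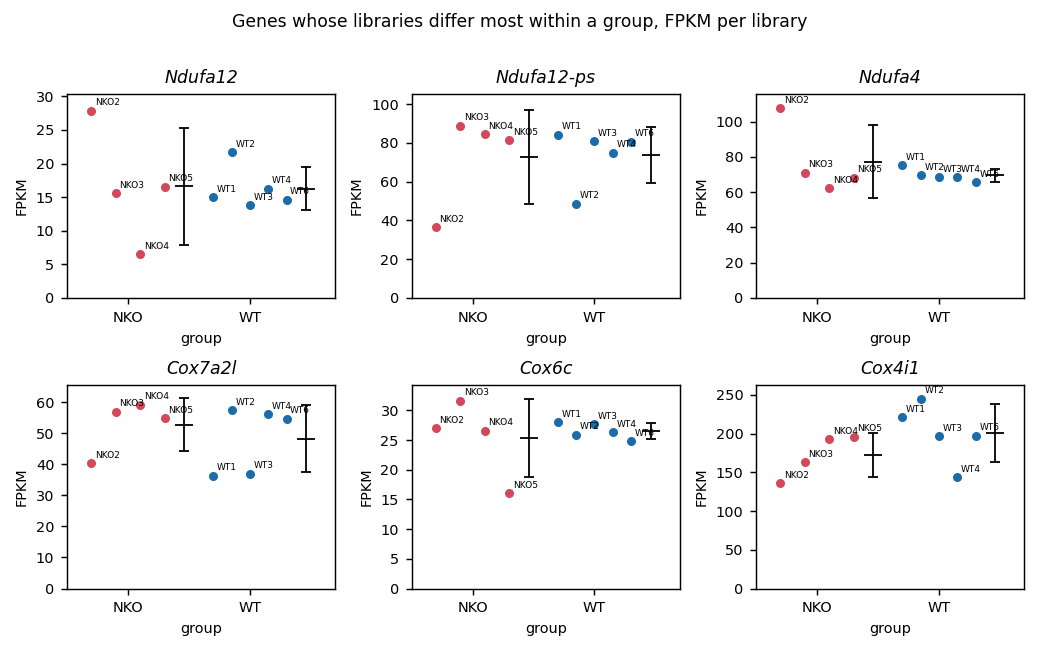
FPKM of each library (y axis, from 0) in both groups (x axis) for 5 of the most variable subunit genes and for the row *Ndufa12-ps*, with the mean and SD beside the points. NKO2 and WT2 are highest in *Ndufa12* and lowest in *Ndufa12-ps*, and *Cox7a2l* falls into a low set of 3 libraries and a high set of 6.

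In complex V, the catalytic head had log2 fold changes close to 0. *Atp5a1* and *Atp5b*, the alpha and beta subunits that form it, were at 232 ± 3.11 against 237 ± 12.4 FPKM (log2 fold change -0.03, SE 0.08) and 216 ± 10.2 against 214 ± 13.1 FPKM (0.02, SE 0.08). They were the highest members of the complex. The c subunit genes were at 73.1 ± 3.07 against 76.1 ± 1.61 FPKM for *Atp5g3* (-0.06, SE 0.08), 43.2 ± 2.40 against 43.7 ± 5.47 FPKM for *Atp5g2* (-0.01, SE 0.11) and 24.2 ± 0.991 against 26.3 ± 2.56 FPKM for *Atp5g1* (-0.12, SE 0.10), so that the order of the paralogs was the same in both genotypes.

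The small membrane subunits of complex V with the smallest p were *Atp5j2* and *Atp5mpl*. *Atp5j2* was at 27.4, 28.8, 29.9 and 25.8 FPKM in NKO2 to NKO5 and 25.8, 32.8, 34.7, 34.6 and 31.4 FPKM in WT1 to WT4 and WT6 (log2 fold change -0.18, SE 0.11, adjusted p = 0.897 by limma), where WT1 matched the lowest *Ncf1Lyz-/-* value and the other 4 WT libraries lay above all *Ncf1Lyz-/-* libraries. *Atp5mpl* was at 32.9 ± 3.05 against 36.8 ± 2.55 FPKM (-0.16, SE 0.10), *Atp5k* at 74.0 ± 3.40 against 71.1 ± 4.58 FPKM (0.06, SE 0.09), *Atp5j*, the coupling factor F6 of the stalk, at 29.2 ± 4.18 against 27.5 ± 2.52 FPKM (0.08, SE 0.12) and *Atp5l*, the lowest, at 12.1 ± 1.48 against 11.8 ± 0.617 FPKM (0.03, SE 0.11). None of these passed the test.

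The members with no test were 5 subunit genes (*Cox4i2*, *Cox6a2*, *Cox7b2*, *Cox8b* and *Cox8c*), the pseudogene *Ndufa11b* and the further *Atp5o* record, the last 2 listed as absent in all 9 libraries. The 3 other pseudogenes were tested, *Ndufb4c* at 8.26 ± 2.06 against 10.9 ± 3.12 FPKM (log2 fold change -0.38, SE 0.23), *Cox6c2* at 7.31 ± 0.251 against 7.19 ± 0.953 FPKM (0.03, SE 0.12) and *Ndufs6b* at 4.58 ± 1.09 against 4.49 ± 0.900 FPKM (0.02, SE 0.18). Their fragments may be shared with the parent genes.

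The partners of these subunits that mitochondrial DNA encodes had higher means in *Ncf1Lyz-/-* livers for 12 of 13 genes, with a median log2 fold change of 0.16, and 0 of 13 passed even an unadjusted p of 0.05. With scaling by median ratios 12 of 13 were again positive, and without NKO3, NKO5 or WT2 it was 10 of 13. In the 6 libraries of higher depth it was 11 of 13 (median 0.25). There 5 had an unadjusted p under 0.05 by limma in either direction, compared with 5.40% of all genes (1.29% higher and 4.11% lower). The WT libraries kept there, WT1 and WT2, had the lowest median deviations of the WT group for these genes (-0.14 and -0.21, others -0.05 to 0.15). *mt-Cytb*, the cytochrome b of complex III, was at 8565 ± 401 against 7488 ± 471 FPKM (log2 fold change 0.20, SE 0.09, adjusted p = 0.844 by limma) and *mt-Atp8*, of complex V, at 6031 ± 591 against 4992 ± 745 FPKM (0.28, SE 0.13, adjusted p = 0.844). *mt-Nd1*, of complex I, was the exception with -0.18 (SE 0.12). These transcripts are captured by poly(A) selection to an uncertain extent, and they spread over libraries more than nuclear subunits (within-group SD of the library medians 0.118, compared with 0.045).

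Of the assembly factors 0 were called in each complex. Of 24 tested factors of complex IV, 8 were positive and 16 negative (median log2 fold change -0.04). Of them 1 was higher at an unadjusted p under 0.05, compared with 2.17% of all genes. This was *Cox16*, which helps to assemble the copper site of the complex, at 4.11, 4.16, 4.11 and 4.89 FPKM in NKO2 to NKO5 and 2.40, 2.998, 2.59, 3.59 and 2.77 FPKM in WT1 to WT4 and WT6, with all 4 *Ncf1Lyz-/-* libraries above all WT libraries (log2 fold change 0.58, SE 0.14, unadjusted p = 0.00168, adjusted p = 0.554 by limma). For complex I, 8 of 15 factors were positive (median 0.01), for complex II 2 of 4 (0.02), for complex III 4 of 5 (0.10) and for complex V 2 of 4 (-0.004).

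Among the regulators of mitochondrial biogenesis, 10 of 14 tested were positive (median 0.05) and 0 were called. Of them 1 was lower at an unadjusted p under 0.05, compared with 3.73% of all genes. In the 6 libraries of higher depth 6 of 13 were positive (median -0.02). The lower gene was *Ppargc1a*, the coactivator PGC-1alpha of the transcription factors that act on subunit genes, at 1.07, 0.794, 0.748 and 0.649 FPKM in NKO2 to NKO5 and 1.40, 1.98, 1.30, 1.98 and 1.197 FPKM in WT1 to WT4 and WT6. All 4 *Ncf1Lyz-/-* values lay below all WT values (log2 fold change -0.86, SE 0.21, unadjusted p = 0.00215, adjusted p = 0.591 by limma). The factors whose motifs were searched had log2 fold changes of 0.14 for *Nrf1*, -0.01 for *Gabpa*, 0.08 for *Yy1* and 0.01 for *Esrra*.

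Of the other lists of mitochondrial and ribosomal genes, 0 genes were called in each. Of the tricarboxylic acid cycle, 6 of 14 were positive (median log2 fold change -0.04), and *Fh1*, fumarate hydratase, which uses the product of complex II, was at 79.7, 42.4, 63.9 and 67.1 FPKM in NKO2 to NKO5 and 89.3, 76.4, 128, 104 and 116 FPKM in WT1 to WT4 and WT6. NKO2 alone of the *Ncf1Lyz-/-* libraries overlapped WT (log2 fold change -0.71, SE 0.20, adjusted p = 0.766 by limma). Of coenzyme Q synthesis 4 of 13 were positive (median -0.06), of other electron donors to coenzyme Q 2 of 8 (-0.05), of inner membrane carriers and uncoupling proteins 1 of 8 (-0.08), of mitochondrial mass markers 6 of 14 (-0.003) and of mitochondrial ribosomal proteins 38 of 75 (0.002). Of cytosolic ribosomal proteins 58 of 82 were positive (0.06), but in the 6 libraries of higher depth 13 of 82 were (-0.14), and of mitochondrial ribosomal proteins 22 of 75 (-0.08), where the median over all genes was -0.11. At an unadjusted p under 0.05, 1 gene was lower in each of the tricarboxylic acid cycle, coenzyme Q synthesis, carrier and mitochondrial ribosomal lists, 1 cytosolic ribosomal protein gene was higher and 3 were lower, and the remaining lists had 0. Over all genes 2.17% were higher and 3.73% lower, and the counts of single lists are too small to be read against these shares. Among the lower genes of these lists were *Ucp2*, an uncoupling protein (log2 fold change -0.45, SE 0.15, adjusted p = 0.784 by limma), and *Coq8b*, a kinase-like protein of coenzyme Q synthesis (-0.71, SE 0.27, adjusted p = 0.840), both chosen after their values were seen. Of 5 chain components that the symbol rule leaves out, 2 were positive (-0.08). *Cyc1*, the cytochrome c1 of complex III, was among them at 65.3 ± 10.2 against 59.6 ± 1.85 FPKM.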

How the data were processed

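Liver RNA of 4 ethanol-fed *Ncf1Lyz-/-* and 5 ethanol-fed WT mice was measured by paired-end sequencing of stranded poly(A) libraries. Mapping was done by the authors in HISAT2 and assembly in StringTie, with edgeR named for expression levels, and versions, genome build and annotation are not given in the sources used here. The deposited FPKM values, scaled to transcript length and library size, are those of the authors, with 0.0001 for an absent gene. Columns of the authors' own comparison (fold change, log2 fold change, p, q and direction) were not used. Columns were placed in groups by name.

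The 2 groups were fitted by limma (version 3.58.1, R 4.3.3), using log2(FPKM + 0.1) and its mean-variance trend option, for 12350 genes that averaged 0.5 FPKM or more, with Benjamini-Hochberg adjustment over all of them. The fit was tested on simulated data, with larger changes than those of most subunit genes and without library effects. That test does not measure how well differences as small as these would be found. Since the test is on log2(FPKM + 0.1), fold changes of low genes are understated. Single genes were also compared by two-sided exact permutation tests, which carry no adjustment. The mice are separate animals, and each gave 1 library. Tables and figures were made in Python 3.11.15, with pandas 2.3.3, numpy 2.4.6 and matplotlib 3.10.9.

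Depth was estimated from 15169 single-exon genes whose lowest values gather on steps of FPKM. Of those values, 59.1% to 63.1% lay within 0.1 of a step, where an even spread gives 40%. In a transcript of 1 kilobase, a single fragment adds between 0.0493 and 0.0649 FPKM, the grain of low values. Of the identifiers, 55141 were in GENCODE M21. Promoter windows are from RefSeq, GRCm38.p6.

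Named members were those with an adjusted p under 0.05, the 2 with the smallest p in each direction per complex, the highest and lowest per complex, core subunits and the paralog families, and up to 2 genes of each other list. Other genes named (such as *Ndufa12*, *Cox6c*, *Ndufb5*, the pseudogenes, *Nrf1*, *Gabpa*, *Yy1*, *Esrra*, *mt-Nd1* and those with a library far from its group) were chosen after their values were seen. The members and lists were chosen with earlier results of these data known. One gene that the rule names is not reported here. Alternatives were pseudocounts of 0.5 and 1, other filters, scaling by median ratios, no trend, array weights, each library left out, and the 6 libraries of higher depth.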

Additional observations from a re-analysis of the deposited data

Results flagged for a closer look

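In 11 of 158 groups of libraries (79 subunit genes in 2 genotypes), 1 library stood far from the others of its group, where chance gives this in about 1 in 20 groups. Of these, 6 were in *Ncf1Lyz-/-* and 5 in WT livers. No explanation was tested.

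NKO4 was lowest in 3 of them. *Cox7c* was at 76.0 FPKM there (others 89.1 to 89.6), *Sdhc* at 41.9 FPKM (others 46.1 to 46.4) and *Ndufv3* at 17.0 FPKM (others 17.7 to 17.9). NKO3 was highest in *Ndufa2* at 62.5 FPKM (others 52.8 to 53.0) and in *Ndufs7* at 30.3 FPKM (others 20.3 to 21.7), and NKO2 was highest in *Atp5h* at 85.4 FPKM (others 75.8 to 76.9).

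Among WT livers, WT6 was lowest in *Uqcrh* at 89.6 FPKM (others 94.3 to 94.8) and in *Atp5c1* at 94.3 FPKM (others 108.6 to 113). WT4 was lowest in *Ndufb5* at 7.51 FPKM (others 10.5 to 11.3). WT2 was highest in *Sdhc* at 51.6 FPKM (others 46.3 to 47.8) and in *Atp5d* at 71.4 FPKM (others 64.0 to 65.5).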

How the results depend on the processing

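No member was called under any of the 17 alternatives, and the smallest adjusted p of a member was 0.196 by limma (with array weights). Of 44 named members tested, 31 kept the sign of the log2 fold change under every alternative run, and the other 13 had values no larger than 0.12 in size. Members higher at an unadjusted p under 0.05 numbered 0 in the 6 libraries of higher depth, where 1.29% of all genes were. Members lower numbered 0 with a mean of at least 1 FPKM, 2 with array weights, 3 in the 6 libraries of higher depth (*Cox7a1*, *Cox6b2* and *Cox4i1*) and 1 to 2 with single libraries left out, with 2 without WT1, WT3 or WT4. The filter of 1 FPKM takes *Cox6b2*, at a mean of 0.848 FPKM, out of the test, so the 0 there says nothing about that gene. Over all genes the share lower was 3.87% with a mean of at least 1 FPKM, 5.87% with array weights, 4.11% in the 6 libraries and 2.81% to 4.62% with single libraries left out. In the 6 libraries of higher depth the median log2 fold change was -0.0699 over subunit genes, -0.0633 in complex I, -0.03 in complex II, -0.06 in complex III, -0.11 in complex IV and -0.0634 in complex V, where that over all genes was -0.11. With single libraries left out it ran from -0.0534 (without WT4) to 0.0100 in complex V. No paired analysis was possible because the numbers of the columns are not tied to the replicate numbers of the labels. Low paralogs are limited by depth, and the causes of these shifts were not tested.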

Other observations

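Outside the respiratory chain, 4 of 4 tested smooth muscle markers had higher means in *Ncf1Lyz-/-* livers, with a median log2 fold change of 0.74. Of them 2 were higher at an unadjusted p under 0.05 by limma (*Myh11* and *Acta2*), compared with 2.17% of all genes, while 0 were past adjustment. Without NKO2, 2 of 3 tested were higher (median 0.29) and 0 were past an unadjusted p of 0.05. All 5 erythroid markers had lower means, with a median of -0.85 and 0 past an unadjusted p of 0.05. Without NKO2 the median was -1.32 and 5 of 5 were lower at an unadjusted p under 0.05 by limma, compared with 3.88% of all genes. Without WT6 it was -0.99 and 4 of 5 were, compared with 2.81% of all genes. In either case 0 of these markers were past adjustment. Markers of the same cell type can move together in a liver, so they are not separate observations. The erythroid sum was 2084 FPKM in NKO2 and 481 to 664 FPKM in the other *Ncf1Lyz-/-* libraries, compared with 998 to 1924 FPKM in WT livers.

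*Rpl29*, a cytosolic ribosomal protein gene, was at 51.6, 1.10, 1.77 and 0.955 FPKM in NKO2 to NKO5 and at 60.7 to 71.4 FPKM in WT livers, so that NKO2 lay near the WT range (log2 fold change -4.28, SE 0.99, adjusted p = 0.554 by limma). Without NKO2, *Rpl29* was past the threshold (log2 fold change -5.60, SE 0.18, adjusted p = 3.84e-06 by limma), while under the other alternatives its adjusted p ran from 0.268 to 0.953. NKO2 was also the library with the highest *Ndufa4* and *Ndufa12* values.

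The remaining marker lists gave 0 calls each. Median log2 fold changes were -0.10 for 10 hepatocyte markers, -0.07 for 12 macrophage and Kupffer cell markers, -0.16 for 4 neutrophil markers, 0.26 for 7 sinusoidal endothelial markers, 0.02 for 8 stellate cell markers, 0.06 for 4 bile duct markers, 0.55 for 3 lymphocyte markers and -0.64 for the single fat marker tested. With libraries left out, the first 6 of these medians changed sign under at least 1 choice, so no direction is read from them. In the 6 libraries of higher depth the median was 0.16 for hepatocyte, -0.13 for sinusoidal endothelial and -0.81 for macrophage and Kupffer cell markers. Of the macrophage list 0 of 12 were positive there and 6 were lower at an unadjusted p under 0.05 by limma, compared with 4.11% of all genes. Here too the markers are not separate observations. Without WT1 the median of that list was 0.15 (10 of 12 positive). The neutrophil median ran from -0.82 without NKO5 to 0.09 without NKO2.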
